A study of Mus musculus with 6 samples.

Results

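Antiviral effector genes outside the large interferon-induced families were compared by RNA sequencing in sorted colonic B cells, with 3 libraries from mice that received lenvatinib and 3 from mice that received DMSO. The 10 genes, Mx1, Mx2, Rsad2, Cmpk2, Xaf1, Ifi44, Ifi27l2a, Rtp4, Ifi35 and Sp100, were taken by symbol as type I interferon effectors that belong to none of the Oas, Ifit, Gbp and Ifi200 families. Of these, 8 had a row among the 20591 symbols of the table, and Mx1 and Mx2, which encode dynamin-like GTPases that block incoming viruses, were not analysed here. Lenvatinib is an oral inhibitor of the VEGF and FGF receptor kinases and of PDGFRA, KIT and RET, and DMSO is its solvent control. The title of the series places the samples in work on colitis and on how B cells reach the gut. The labels give the treatment, the cell type and a biological replicate number for each library, but no strain, age, dose, duration or state of the colon, and whether a library stands for 1 animal or a pool is not stated. All p-values thus rest on how far these 6 libraries scatter, and that scatter could be technical.

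Type I interferon binds a receptor made of Ifnar1 and Ifnar2, whose kinases Jak1 and Tyk2 activate transcription factors, among them Stat2 with its partner Irf9. These bind interferon-stimulated response elements in DNA and switch on a broad set of genes. The effectors described here act at separate steps. Rsad2 (viperin) and Cmpk2 work on nucleotides that viral polymerases use, Sp100 belongs to PML nuclear bodies that silence incoming viral DNA, and Xaf1 and Ifi27l2a have been tied to cell death. Rtp4 is a receptor-transporting protein, Ifi35 a binding partner of Nmi, and Ifi44 an interferon-induced protein whose action is less well defined.

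The effectors that could be tested all lay lower in the lenvatinib libraries. Start regions are shown for the letters to which interferon-activated factors bind, and any link between these letters and the fall was not tested. RefSeq windows running from 250 bases before the annotated start to 50 after it were at hand for 6 of the 10 genes, on build GRCm38.p6, which is older than the build the submitters used. Among the genes without a window were Ifi27l2a and Rtp4, the tested effectors with the largest log2 falls. Rsad2 and Cmpk2 are shown because they are chromosomal neighbours read in opposite directions, and Xaf1 and Sp100 because the first fell more strongly than the second. The windows are chr12:26456403-26456702 (- strand) for Rsad2, chr12:26468965-26469264 (+ strand) for Cmpk2, chr11:72301379-72301678 (+ strand) for Xaf1 and chr1:85649738-85650037 (+ strand) for Sp100. Each is written 5′ to 3′ in the direction of the gene, and capitals mark matches, on either strand, to the 9-letter motif AAANNGAAA or to a 10-letter motif made of the same letters with a G in front.
Rsad2: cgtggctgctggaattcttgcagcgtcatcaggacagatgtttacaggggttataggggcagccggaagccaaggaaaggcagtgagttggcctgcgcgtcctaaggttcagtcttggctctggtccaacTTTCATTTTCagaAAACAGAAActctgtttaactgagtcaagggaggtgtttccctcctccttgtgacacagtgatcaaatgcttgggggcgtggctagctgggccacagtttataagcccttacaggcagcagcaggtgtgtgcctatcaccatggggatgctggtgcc
Cmpk2: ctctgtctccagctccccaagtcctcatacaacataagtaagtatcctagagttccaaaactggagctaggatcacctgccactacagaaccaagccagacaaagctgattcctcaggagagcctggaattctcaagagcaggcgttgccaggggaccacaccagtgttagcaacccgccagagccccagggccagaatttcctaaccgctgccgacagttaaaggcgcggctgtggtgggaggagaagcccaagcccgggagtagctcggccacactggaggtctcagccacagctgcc
Xaf1: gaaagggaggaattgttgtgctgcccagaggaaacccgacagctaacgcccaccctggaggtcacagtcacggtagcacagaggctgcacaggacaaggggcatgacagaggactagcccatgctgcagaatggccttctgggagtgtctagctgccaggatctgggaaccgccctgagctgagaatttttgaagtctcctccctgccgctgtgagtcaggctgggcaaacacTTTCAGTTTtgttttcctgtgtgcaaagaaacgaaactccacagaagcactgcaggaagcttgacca
Sp100: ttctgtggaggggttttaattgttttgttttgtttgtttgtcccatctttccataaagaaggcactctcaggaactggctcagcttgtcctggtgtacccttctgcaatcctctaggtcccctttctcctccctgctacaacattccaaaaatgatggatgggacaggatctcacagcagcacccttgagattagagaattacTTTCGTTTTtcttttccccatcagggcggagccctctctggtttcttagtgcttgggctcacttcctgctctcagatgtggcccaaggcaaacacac

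The 10-letter motif was found in the window of 1 of the 6 genes, Rsad2, at bases -120 to -111 from the start on the opposite strand. It occurs in 3.99 percent of the 27025 genes with a window. The 9-letter motif AAANNGAAA, which every 10-letter match also contains, was found in 4 of the 6, Rsad2, Xaf1, Ifi44 and Sp100, against 12.1 percent of all genes. In Rsad2 a separate 9-letter match lies at -107 to -99 on the strand of the gene, and the match lies on the opposite strand at -17 to -9 in Xaf1, -55 to -47 in Ifi44 and -47 to -39 in the Sp100 window shown. Sp100 has another annotated start whose window holds a 9-letter match at -73 to -65. Neither motif was found in the windows of Cmpk2 and Ifi35. For comparison, 19 of 38 other interferon-induced genes with a window hold the 10-letter motif and 24 of 38 the 9-letter one. A match describes the letters and is not a measured binding site.

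**Figure D1:**
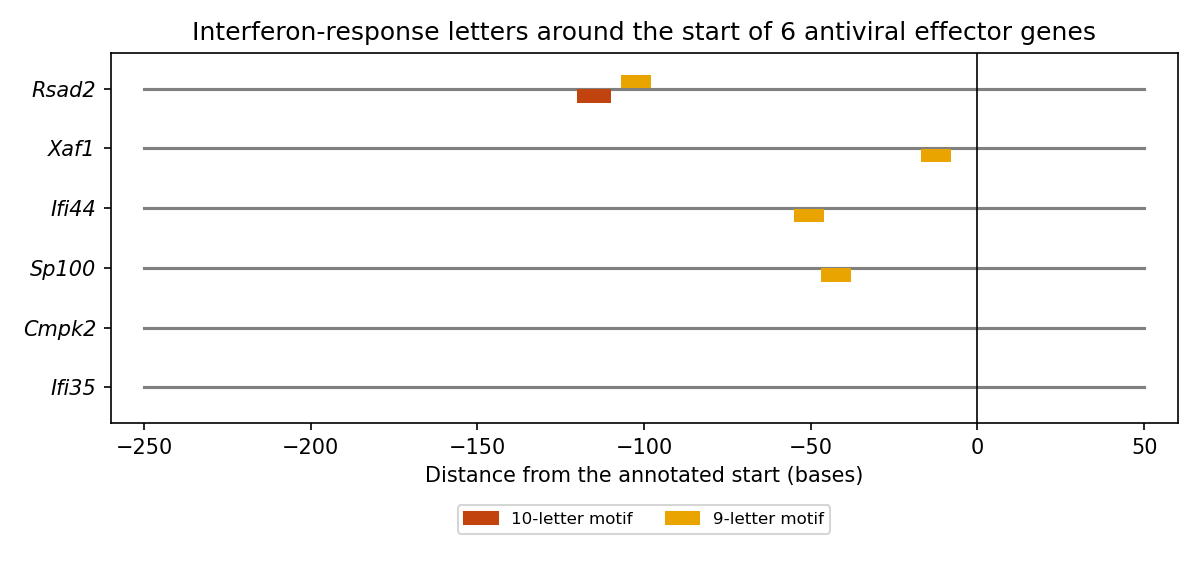
Positions of the 10-letter (red) and 9-letter (yellow) interferon-response letters in the windows of 6 antiviral effector genes, with the distance from the annotated start in bases on the x axis, matches on the strand of the gene above each line and matches on the opposite strand below it. Rsad2 holds both kinds, Xaf1, Ifi44 and Sp100 hold a 9-letter match, and Cmpk2 and Ifi35 hold neither. For Sp100 the window printed in the text is drawn.

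Values are given in scaled FPKM, the deposited FPKM (fragments per length of the gene and depth of the library) after a small scaling between libraries, in the order of replicates 1, 2 and 3, and SDs are over n = 3 libraries. Changes are differences of log2(scaled FPKM + 1), lenvatinib minus DMSO, which understate the change of genes with low values. They were tested with limma across all genes that reached a scaled FPKM of 1 in at least 3 libraries, with Benjamini-Hochberg adjustment. All 7 effectors that reached this level, Rsad2, Cmpk2, Xaf1, Ifi27l2a, Rtp4, Ifi35 and Sp100, fell at an adjusted p under 0.05, and 0 rose. Among the 9937 genes tested, 8.21 percent fell and 10.4 percent rose. The median change of the 7 was -0.72, against 0.01 over all tested genes. In each of the 7 the 3 lenvatinib libraries lay below the 3 DMSO libraries, as they did for 18.2 percent of all tested genes. The 7 had a scaled FPKM of at least 1 in all 6 libraries, so none was tested through its DMSO libraries alone. Ifi44 stayed below the level for testing.

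**Figure D2:**
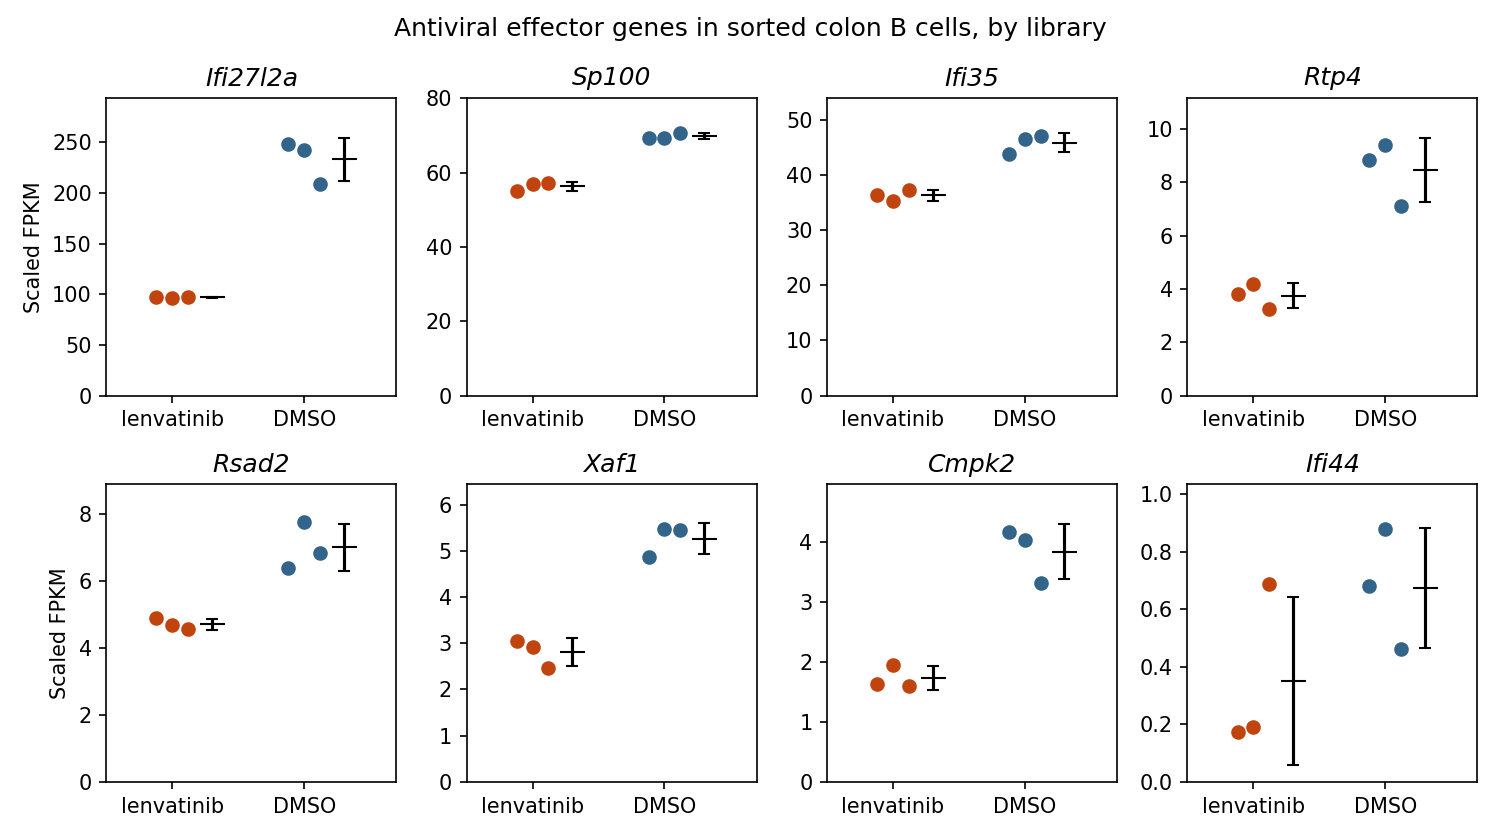
Scaled FPKM (y axis, from 0) of the 8 measured effector genes in the 3 lenvatinib and the 3 DMSO libraries (points, replicates 1 to 3 from left to right), with the mean and SD of each group in black. The groups do not overlap in 7 of the genes. Ifi44 is the exception, with lenvatinib replicate 3 at 0.687 among the DMSO values.

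Both genes of the nucleotide-acting pair fell, Cmpk2 by more than Rsad2 in these libraries, though their 95% intervals overlapped. Cmpk2, a mitochondrial nucleotide kinase, had 1.63, 1.96 and 1.61 FPKM in the lenvatinib libraries, against 4.17, 4.04 and 3.32 FPKM in the DMSO libraries. Its mean of 1.73 ± 0.197 was 54.9 percent below the 3.84 ± 0.454 of the DMSO group, a log2 change of -0.82 (SE 0.112, 95% interval -1.08 to -0.57, limma adjusted p = 0.000986). The highest lenvatinib library was well below the lowest DMSO library.

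Rsad2, a radical SAM enzyme that makes a chain-terminating form of CTP, had 4.89, 4.68 and 4.56 FPKM in the lenvatinib libraries, against 6.39, 7.78 and 6.85 FPKM in the DMSO libraries. The groups did not overlap, but the mean was 32.8 percent lower, a log2 change of -0.48 (SE 0.0875, 95% interval -0.68 to -0.29, limma adjusted p = 0.00474). Gene pairs were also compared within each library, as the log2 ratio of their scaled FPKM, each with the pseudocount of 1 added, so that the ratio of genes at a low level is pulled towards 0 and is not the plain ratio of their levels. On this scale the ratio of Rsad2 to Cmpk2 was 1.06 ± 0.114 in the lenvatinib group and 0.73 ± 0.184 in the DMSO group, a difference of 0.34. The groups did not overlap, and the two-sided exact permutation p was 0.1, the smallest that 3 against 3 allows (0.125 adjusted over the 5 gene pairs compared in this way). The difference depended on the pseudocount, at 0.43 with 0.5 and 0.54 with 0.1, and it was 0.23 without DMSO replicate 1 and 0.41 without DMSO replicate 3.

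Of the genes tied to cell death, Ifi27l2a had the largest log2 fall of the 7 tested effectors. The change of Xaf1 was near that of Cmpk2, with overlapping 95% intervals, and both were -0.77 without DMSO replicate 1. Ifi27l2a, a small membrane protein of the ISG12 family, was the most abundant of the effectors in both groups, with 97.1, 96.4 and 97.4 FPKM in the lenvatinib libraries, against 248, 243 and 209 FPKM in the DMSO libraries. The lenvatinib libraries lay very close together, and DMSO replicate 3 stood below the other DMSO libraries. The log2 change was -1.26 (SE 0.0568, 95% interval -1.38 to -1.13, limma adjusted p = 2.45e-06), and 8 of the 9937 tested genes had a larger fall. Its coefficient of variation was 0.537 percent in the lenvatinib group, less than the 1.99 percent that counting alone gives for its reads, and 9.0 percent in the DMSO group, where counting gives 1.29 percent.

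In the RefSeq annotation Ifi27l2a overlaps Ifi27, a relative on the same chromosome, and the strand setting of the counting was not given in the sources used here, so reads of the pair may not be fully separated. Ifi27 itself did not pass the test, at 40.5 ± 4.51 FPKM with lenvatinib and 37.4 ± 1.38 FPKM with DMSO (log2 change 0.1, limma adjusted p = 0.383). The within-library log2 ratio of Ifi27l2a to Ifi27 was 1.25 ± 0.163 with lenvatinib and 2.6 ± 0.121 with DMSO, a difference of -1.36 (exact permutation p = 0.1, adjusted p = 0.125). A closer copy, Ifi27l2b, had 0.054 ± 0.0935 FPKM with lenvatinib and 0.115 ± 0.106 FPKM with DMSO.

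Xaf1, which binds the caspase inhibitor Xiap and counters it, had 3.04, 2.91 and 2.46 FPKM in the lenvatinib libraries, against 4.87, 5.46 and 5.44 FPKM in the DMSO libraries. The mean was 46.7 percent lower, and every lenvatinib library was below every DMSO library. Its log2 change was -0.72 (SE 0.0973, 95% interval -0.94 to -0.5, limma adjusted p = 0.000943). Xiap stood at 3.98 ± 0.1 FPKM with lenvatinib and 4.24 ± 0.0805 FPKM with DMSO and did not pass (limma adjusted p = 0.581). The log2 ratio of Xaf1 to Xiap was -0.39 ± 0.147 with lenvatinib and 0.25 ± 0.064 with DMSO (difference -0.65, exact permutation p = 0.1, adjusted p = 0.125).

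Rtp4, which helps carry certain receptors to the cell surface and also limits virus replication, had 3.82, 4.19 and 3.24 FPKM in the lenvatinib libraries, against 8.84, 9.41 and 7.11 FPKM in the DMSO libraries. It was the second most reduced effector, 55.6 percent lower by the means, with a log2 change of -0.99 (SE 0.116, 95% interval -1.25 to -0.73, limma adjusted p = 0.00043). Cmpk2 came close, at 54.9 percent lower by the means and with an overlapping 95% interval. In both groups replicate 3 had the lowest Rtp4 value and replicate 2 the highest. The annotated Rtp4 locus overlaps Masp1, a complement protease gene looked up after that overlap was seen, which had 0 FPKM in 5 libraries and 0.0262 FPKM in DMSO replicate 2.

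The abundant effectors Ifi35 and Sp100 fell least. Ifi35 had 36.3, 35.2 and 37.3 FPKM in the lenvatinib libraries, against 43.8, 46.4 and 47.1 FPKM in the DMSO libraries, a fall of 20.7 percent by the means (log2 change -0.33, SE 0.0459, 95% interval -0.43 to -0.22, limma adjusted p = 0.00116). The groups were narrow and apart. Its binding partner Nmi, also interferon-induced, fell to 14.5 ± 0.341 FPKM with lenvatinib, against 20.3 ± 0.804 FPKM with DMSO (log2 change -0.46, limma adjusted p = 0.000482). The within-library log2 ratio of Ifi35 to Nmi overlapped between the groups, at 1.27 ± 0.072 with lenvatinib and 1.13 ± 0.072 with DMSO (exact permutation p = 0.2, adjusted p = 0.2). With a pseudocount of 0.1 the difference was 0.15 (exact permutation p = 0.1, not adjusted), against 0.13 with 1.

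Sp100, a scaffold of PML nuclear bodies, had 55.0, 57.0 and 57.1 FPKM in the lenvatinib libraries, against 69.2, 69.4 and 70.7 FPKM in the DMSO libraries. This is a fall of 19.3 percent by the means, with groups well apart (log2 change -0.3, SE 0.0355, 95% interval -0.38 to -0.22, limma adjusted p = 0.000419). Pml, which builds these bodies, fell to 20.7 ± 0.459 FPKM with lenvatinib, against 31.7 ± 0.205 FPKM with DMSO (log2 change -0.59, limma adjusted p = 3.47e-05). The log2 ratio of Sp100 to Pml was 1.4 ± 0.043 with lenvatinib and 1.11 ± 0.018 with DMSO, a difference of 0.29 without overlap (exact permutation p = 0.1, adjusted p = 0.125). Other members of the bodies and of the Sp100 family moved by smaller amounts than Pml. The histone chaperone Daxx fell by 0.39 on the log2 scale (limma adjusted p = 0.00798), Sp110 by 0.27 (adjusted p = 0.00331) and Sp140 by 0.2 (adjusted p = 0.00488). Atrx, named after its values were seen, did not pass (log2 change -0.14, limma adjusted p = 0.0949). Of the 11 tested partners and relatives of the effectors, 5 fell and 1 rose, with a median of -0.14. The gene that rose was Fdps, a farnesyl pyrophosphate synthase that human viperin binds, at 31.3 ± 3.3 FPKM with lenvatinib and 25.5 ± 1.18 FPKM with DMSO (limma adjusted p = 0.0287).

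Ifi44 was barely expressed. It had 0.174, 0.19 and 0.687 FPKM in the lenvatinib libraries, against 0.681, 0.879 and 0.461 FPKM in the DMSO libraries, from 16, 16 and 55 reads with lenvatinib and 52, 79 and 40 reads with DMSO. Lenvatinib replicates 1 and 2 lay below the DMSO libraries and replicate 3 lay among them. When genes of all levels were tested, the log2 change was -0.32 (95% interval -0.74 to 0.09, limma adjusted p = 0.383). The coefficient of variation among lenvatinib libraries was 83.3 percent, where counting alone gives 18.6 percent. The tested effectors rested on 142 to 10860 reads per library.

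In the lenvatinib group the order of levels was Ifi27l2a, Sp100, Ifi35, Rsad2, Rtp4, Xaf1, Cmpk2 and Ifi44, and no neighbours in it overlapped. In the DMSO group Rtp4 stood above Rsad2, but their ranges overlapped, at 7.11 to 9.41 FPKM for Rtp4 and 6.39 to 7.78 FPKM for Rsad2. The rest of the order was the same in both groups. No library was high or low throughout. The mean of log2(scaled FPKM + 1) over the 7 tested effectors was 3.7, 3.72 and 3.64 in lenvatinib replicates 1, 2 and 3, against 4.38, 4.45 and 4.32 in DMSO replicates 1, 2 and 3. Of the 8 genes, DMSO replicate 3 held the lowest DMSO value for 4 and the highest for 2.

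The libraries also differed in markers of other cells, whose part in the fall of the effectors was not tested. The B cell label held, with Cd79a, a part of the B cell receptor named after its values were seen, at 802 ± 20.9 FPKM with lenvatinib and 1035 ± 21.6 FPKM with DMSO. The summed level of 16 B cell identity genes was 3274 to 3304 FPKM in the lenvatinib libraries, against 3822 to 3905 FPKM in the DMSO libraries, and 13 of the 16 fell and 0 rose. Their log2 changes ran from -0.41 to 0.05, with a median of -0.24. Cd79a, at -0.37, was among the larger falls of the list. The sum of 13 T cell markers was 139 to 145 FPKM with lenvatinib and 48.1 to 52.7 FPKM with DMSO, and 8 of the 11 tested rose. That of 11 natural killer and innate lymphoid markers was 155 to 158 FPKM with lenvatinib and 30.0 to 37.3 FPKM with DMSO, with all 8 tested higher. For 13 colon epithelium markers it was 68.6 to 74.8 FPKM with lenvatinib and 14.7 to 15.9 FPKM with DMSO, with all 9 tested higher. The sums for 14 macrophage and dendritic cell markers were 77.1 to 87.1 FPKM with lenvatinib and 65.2 to 68.3 FPKM with DMSO, with 2 of 11 tested higher. Neutrophil markers summed to 12 to 17.1 FPKM with lenvatinib and 6.43 to 7.44 FPKM with DMSO (2 of 3 tested higher). Plasma cell markers summed to 345 to 360.4 FPKM with lenvatinib and 369 to 375 FPKM with DMSO (1 of 7 tested higher, 1 lower). Some of the markers that rose reached the level for testing through the lenvatinib libraries alone. No measured marker in these lists was at 0 in all libraries. The sum for 8 plasmacytoid dendritic cell markers was 188 to 195 FPKM with lenvatinib and 244 to 250.4 FPKM with DMSO. Of the 6 tested, 3 were lower, 1 was higher and 2 did not pass. The sum was for the larger part Irf8 and Bst2, which B cells also express and which both fell. The other marker that fell, Ly6c2, was at 10.9 ± 1.01 FPKM with lenvatinib and 18.2 ± 1.15 FPKM with DMSO. The more specific Siglech rose, at 2.38 ± 0.272 FPKM with lenvatinib and 1.31 ± 0.572 FPKM with DMSO (limma adjusted p = 0.0472). Its groups were close, with DMSO replicate 2 at 1.94 FPKM and lenvatinib replicate 3 at 2.11 FPKM. The 2 that did not pass were Ccr9 and Tcf4, with log2 changes of 0.32 and -0.2. Ly6c2, Siglech, Ccr9 and Tcf4 were also named afterwards. In such bulk samples, fewer cells of a type and less RNA per cell cannot be told apart.

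When libraries were scaled on the B cell identity genes instead of on all expressed genes, 5 of the 7 effectors were called lower and Ifi35 and Sp100 did not pass. The identity genes did not move together, at -0.41 to 0.05 before this scaling, so it is not a measured correction for B cell content. Ifi35 at -0.33 and Sp100 at -0.3 lay within that range. Scaling on the identity genes raised the median change of all tested genes to 0.2 and split the calls over all genes into 206 lower and 4454 higher, against 816 lower and 1038 higher in the scaling used above. Under it the log2 change was -1.03 for Ifi27l2a, -0.8 for Rtp4, -0.66 for Cmpk2, -0.54 for Xaf1 and -0.29 for Rsad2 (limma adjusted p at most 0.0212). It was -0.11 for Ifi35 (limma adjusted p = 0.0766) and -0.08 for Sp100 (limma adjusted p = 0.0759). Relative to the median of all genes under this scaling, the changes were -1.24 for Ifi27l2a, -0.31 for Ifi35 and -0.29 for Sp100. Subtracting that median largely undoes the scaling, so these values restate those of the first scaling and are no separate result.

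**Figure D3:**
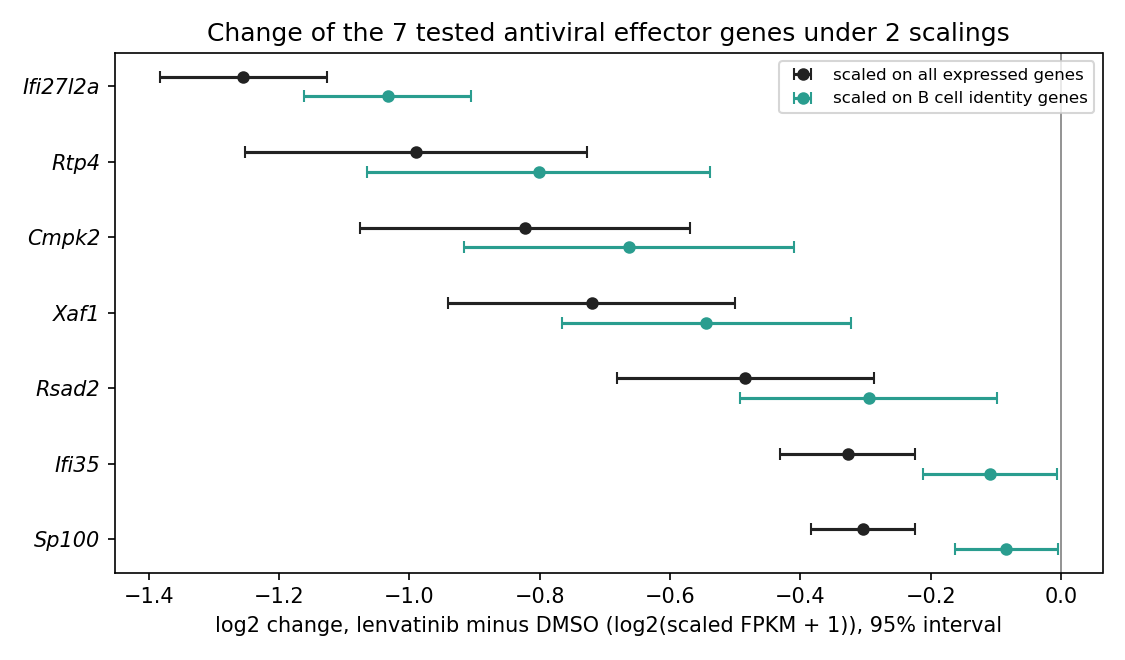
Log2 change (x axis, lenvatinib minus DMSO) of the 7 tested effector genes with its 95% interval, in black with libraries scaled on all expressed genes and in green with libraries scaled on B cell identity genes. The second scaling moves all genes by a similar amount, so their order is kept. With it Ifi35 at -0.11 and Sp100 at -0.08 lie close to 0.

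The other interferon-induced genes moved the same way. In a list of 48 such genes, 45 were tested, of which 40 fell and 0 rose, with a median log2 change of -0.61, and 5 of them are also in the signalling list below. Under the B cell scaling 34 of 44 tested fell. Oas2, an oligoadenylate synthetase that senses double-stranded RNA, fell to 5.43 ± 0.906 FPKM with lenvatinib, against 18.2 ± 0.865 FPKM with DMSO, and Ifit3, of the antiviral Ifit family, to 3.97 ± 0.55 FPKM with lenvatinib, against 13.0 ± 0.794 FPKM with DMSO. Slfn5, of the Schlafen family, changed by -1.43, Ifi213, a PYHIN protein, by -1.21 and Trim30a, a tripartite-motif protein, by -0.8. The 5 tested genes that did not pass were Isg20, Ifih1, Ifi204, Epsti1 and Cmtr1, with log2 changes of -0.45, -0.3, 0.28, -0.06 and -0.17, named after their values were seen. Oas1g and Parp12 were below the level for testing. Ifit3b and Phf11d had lenvatinib means below 1 FPKM, so both were tested by virtue of their DMSO libraries, and they too were chosen after their values were seen.

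Among 14 genes of interferon signalling, 7 fell, 0 rose and 7 did not pass, with a median log2 change of -0.13. The transcription factor Irf7, which amplifies type I interferon responses, fell to 36.7 ± 1.51 FPKM with lenvatinib, against 86.6 ± 2.62 FPKM with DMSO (log2 change -1.22, limma adjusted p = 9.97e-07). The transcription factors Stat2 and Irf9 fell less, with log2 changes of -0.65 for Stat2 and -0.43 for Irf9 (limma adjusted p at most 0.000302). Usp18, a feedback inhibitor at the receptor, changed by -1.18 and Irf8, a factor of B and myeloid cells, by -0.31. Jak1 fell by 0.12 on the log2 scale (limma adjusted p = 0.02). The receptor chains did not pass, with Ifnar1 at 41.6 ± 1.66 FPKM with lenvatinib and 46.0 ± 1.22 FPKM with DMSO (limma adjusted p = 0.0604) and Ifnar2 at 7.0 ± 0.642 FPKM with lenvatinib and 6.87 ± 0.928 FPKM with DMSO. Irf3, Irf5, Tyk2, Socs1 and Socs3 did not pass either and, like Jak1, are named with their values seen.

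**Figure D4:**
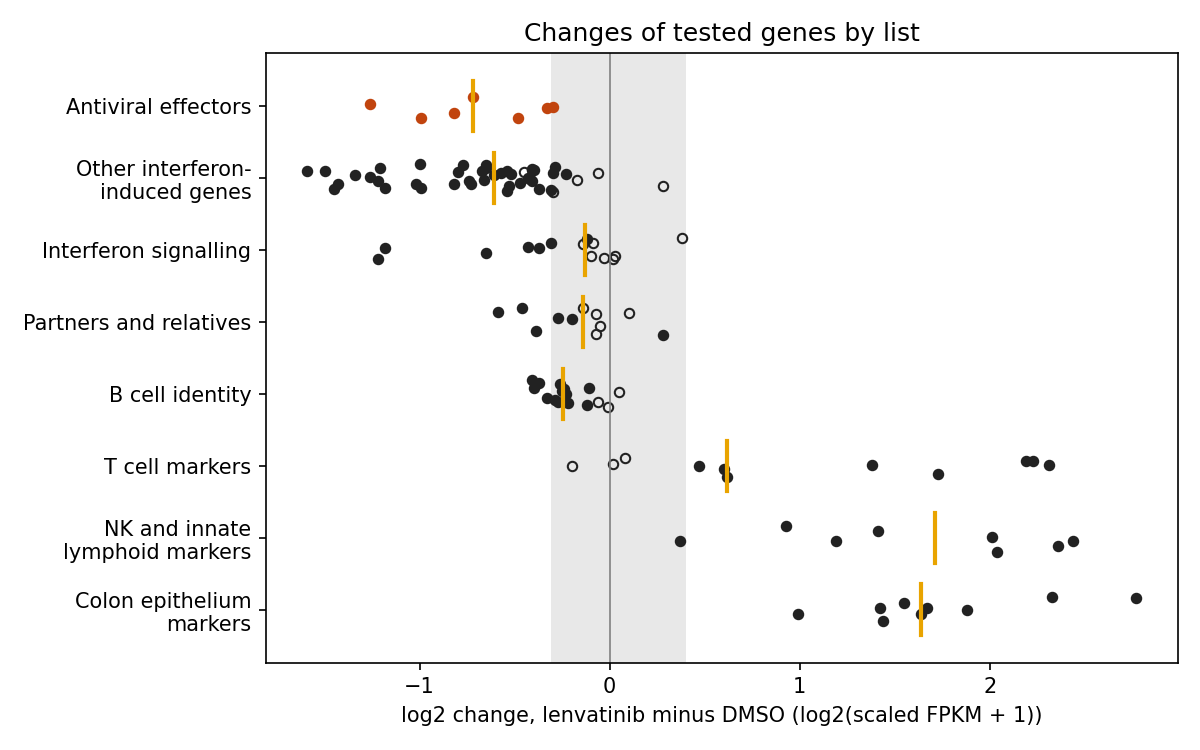
Log2 changes (x axis, lenvatinib minus DMSO) of the tested genes of 8 lists, each point a gene, filled where the limma adjusted p is under 0.05 and open where it is not, with list medians in yellow and the 5th to 95th percentile of all tested genes, -0.31 to 0.4, shaded. The effectors lie from -1.26 to -0.3 beside the other interferon-induced genes, and the T cell, natural killer and epithelial markers, some of which reached the level for testing through the lenvatinib libraries alone, lie mostly to the right.

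Interferon transcripts were scarce, apart from Ifng. Of 20 interferon genes looked for, 8 had a row, and the other 12 were not analysed here. Ifnb1 had 38, 8 and 7 reads in the lenvatinib libraries, against 0, 4 and 0 reads in the DMSO libraries. Each of Ifna1, Ifna4, Ifna5, Ifnab, Ifnl2 and Ifnl3 had 0 reads in at least 4 of the 6 libraries and at most 12 in any. Ifng, the type II interferon made by T and natural killer cells, rose to 7.34 ± 0.775 FPKM with lenvatinib, against 1.37 ± 0.123 FPKM with DMSO (log2 change 1.82, limma adjusted p = 6.94e-06). Its rise stood beside those of the T cell and natural killer markers given above.

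The 5 genes outside the set whose profile over the 6 libraries was most like the mean profile of the tested effectors were Zfp958, Gpr108, Smim14, Plk2 and Etnk1, with Pearson r of 0.9985, 0.9979, 0.9977, 0.9973 and 0.997. None of them was in the interferon lists, and their log2 changes lay between -0.48 for Plk2, a polo-like kinase, and -0.28 for Zfp958, a zinc finger gene. Since the 6 libraries fall into 2 treatment groups, such an r mainly reflects the difference between the groups and is given as a description.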

How the data were processed

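Per the labels' protocols, RNA from the cells was isolated in TRIzol, and a VAHTS Universal V10 kit served for library construction. Reads were counted with HTSeq against build GRCm39, per the submitters' processing notes. Aligner, annotation, versions and strand setting are not given in the sources used here. FPKM values deposited by the authors fill 1 table, whose 6 value columns were matched to the libraries by the names in the sample descriptions, with 0 columns left unused.

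FPKM were divided by median-of-ratios factors of 0.992 to 1.009. The 9937 genes that reached a scaled FPKM of 1 in 3 or more libraries were fitted as log2(scaled FPKM + 1) on treatment alone, using limma 3.58.1 (R 4.3.3, trend and robust moderation, two-sided, threshold 0.05 on the Benjamini-Hochberg adjusted p). FPKM steps gave whole reads, to a tolerance of 1e-05, for 100.0 percent of the 19715 genes with a value, and library totals of 26635279 to 31655500. The recovered lengths of 13 of 13 mitochondrial protein genes equalled the annotation. Genes of low count may be recovered only up to a common factor. Counting errors quoted cover counting only. Procedures were tested on simulated data.

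The effectors and the lists were chosen with earlier results of these data known. All effectors are named, with fixed partner genes and the genes of smallest p in each list, and exceptions are marked as named after their values were seen. Motifs were searched in RefSeq windows of build GRCm38.p6. Alternatives covered pseudocounts, filters, scalings, a replicate term, moderation, library weights, a minimum change, limma-voom on recovered reads and leaving out each library. Values of 1 listed gene are not reported here.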

Additional observations from a re-analysis of the deposited data

How the results depend on the processing

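All 7 tested effectors were called lower with each pseudocount, without a filter, with the other scalings except that on B cell identity genes, without trend and robust moderation, with weights per library, with limma-voom and without any single library. With a mean filter of 5 FPKM, 5 effectors were tested and 5 were called lower. Against a minimum log2 change of 0.5, 1 effector passed, Ifi27l2a (limma adjusted p = 7.1e-05), and Rtp4 had an adjusted p of 0.0838. In that test 10 of the other interferon-induced genes passed, and 20 genes were lower and 102 higher over all genes. The median change of the effectors, -0.72, became -0.89 and -0.8 with pseudocounts of 0.1 and 0.5, -0.6 without a filter, which adds Ifi44, -0.48 with a mean filter of 5, which removes Cmpk2 and Xaf1, -0.54 with the B cell scaling and -0.91 with limma-voom, which uses no FPKM pseudocount. Leaving out a library gave -0.77 to -0.65 (-0.65 without lenvatinib replicate 3) and 34 to 39 other interferon-induced genes called lower. Genes called higher over the whole table were fewer without any single library. They numbered from 673 without lenvatinib replicate 2 to 827 without DMSO replicate 2, against 1038 with all libraries. The difference in the ratio of Rsad2 to Cmpk2, 0.34 with a pseudocount of 1, was 0.54 with 0.1, and no pair's difference changed sign with either smaller pseudocount or without any single library. Libraries with the same replicate number showed no shared deviation (correlations of -0.007, 0.006 and -0.005 over genes). This cannot show whether the numbers pair libraries, which the labels do not state. A fit with a replicate block called 7 effectors and 38 other interferon-induced genes lower and changed no call on an effector. At the depth of these libraries Ifi44, with 16 to 79 reads per library, allows no firm statement.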
